A study of Mus musculus with 6 samples.

Results

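Interferon-stimulated genes were followed in choroid endothelial cells (ECs) of mice at postnatal day 5 (P5) and postnatal day 30 (P30). The 37 genes were chosen by name, as widely used members of the interferon response, and 36 of them have a row among the 22026 gene symbols of the deposited files; Ifi27 has no row under that symbol. RNA came from 3 isolations per age of 129/B6 mice, each a pool of 7 animals, and the cells were sorted by flow cytometry for VE-Cadherin, an adhesion protein of ECs, after an antibody to it had been injected into the living animal. The labels and methods name no interferon, virus or other stimulus in either group. P5 mice were anaesthetized by cooling and given less antibody than P30 mice, so age cannot be told apart from this difference in handling. Levels are FPKM, the authors' count of fragments scaled to the length of the gene and to the size of the library, so they can be compared between genes.

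Interferons are signalling proteins that cells release on sensing viral or other foreign nucleic acid. Type I interferons bind the receptor pair IFNAR1 and IFNAR2, type II interferon binds IFNGR1 and IFNGR2, and both use Janus kinases to activate STAT proteins. Activated STAT proteins bind a DNA element called the ISRE together with IRF9, and one called the GAS element without it, and IRF1 binds ISRE-like sequences. The target genes encode RNA sensors, enzymes that halt translation or degrade RNA, membrane proteins that block viral entry or release, and GTPases that attack the vacuoles of intracellular microbes. Many of these genes are also expressed at a basal level in cells without infection, vascular ECs among them.

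The sorted cells carried endothelial markers at high level. The means of 10 endothelial genes over the 6 isolations ran from 405 to 8141 FPKM, with Plvap and Emcn highest and the adhesion gene Pecam1 between 1243 and 1680. VE-Cadherin (Cdh5) lay between 2878 and 3069 at P5 and lower at P30, between 1840 and 1943 (log2 difference -0.66, limma adjusted p = 0.00205). Every P30 isolation lay above every P5 isolation in 6 of the 10 genes and below in 1, Cdh5. Their summed FPKM lay between 21588 and 22877 at P5 and between 30263 and 36812 at P30. By the limits defined below, 1 of the 10 rose (Plvap). Over all genes tested, 5.89% rose and 5.82% fell by these limits. Markers of other cells were also present and moved with age. The sum of 8 retinal pigment epithelium (RPE) genes, led by Ttr and Rgr, ran from 81.3 to 176 at P5 and from 509.6 to 3968 at P30, and 5 of the 7 tested rose. That of 10 pericyte and smooth muscle genes, led by Rgs5 and Pdgfrb, ran from 544 to 1842 and from 2172 to 7008, with 1 of 9 rising. In 6 of these 9 every P30 isolation lay above every P5 isolation (66.7%), beside 22.0% of all genes tested. At a limma adjusted p under 0.05 with at least a 2-fold difference, 6 passed toward P30, beside 9.05% of all genes. For 6 fibroblast genes, led by Col3a1 and Dcn, the sum ran from 725 to 1193 and from 1777 to 4488, with 1 of 6 rising. For 5 photoreceptor genes, led by Gnat1 and Sag, it ran from 1.11 to 5.95 and from 27.7 to 189, with 2 of 4 rising. The sum of 16 macrophage and leukocyte genes went the other way, from between 1484 and 1865 at P5 to between 420.3 and 1284 at P30, with 6 of 13 falling, and the T cell gene Cd3e was listed at 0 in every isolation.

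Ages were compared with limma on log2(FPKM + 1) over the 12481 genes whose mean reached 5 FPKM at P5 or at P30. A gene was said to rise or fall at a Benjamini-Hochberg adjusted p under 0.01 with at least a 2-fold difference in mean FPKM + 1, the limits given in the study's methods. Of the 36 interferon-stimulated genes, 34 passed the minimum and 6 rose from P5 to P30, which is 17.6% of those tested beside 5.89% of all genes tested. These were Irf1, Ifit3, Ifitm1, Ifitm2, Ifitm3 and Ifi35. None fell by these limits in limma, beside 5.82% of all genes, and at an unadjusted p under 0.05 there were 3 lower at P30 (8.82%) beside 28.8% of all genes, and 17 higher (50%) beside 20.7%. The count of interferon-stimulated genes that rose was 3 (Ifitm1, Ifitm2 and Ifi35) without P5 replicate 2 and 9 without P30 replicate 3. Leaving out 1 isolation also moved the count over all genes, to between 396 and 849 beside 735 with all isolations. At an adjusted p under 0.05 with the same fold limit, 12 of the 34 passed toward P30 and 2 toward P5, beside 9.05% and 7.69% of all genes. The median log2 fold change of the 34 genes was 0.62, that of all genes tested -0.097. Every P30 isolation lay above every P5 isolation in 16 of the 34 (47.1%) beside 22.0% of all genes, and below in 3 (8.82%) beside 33.0%.

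**Figure D1:**
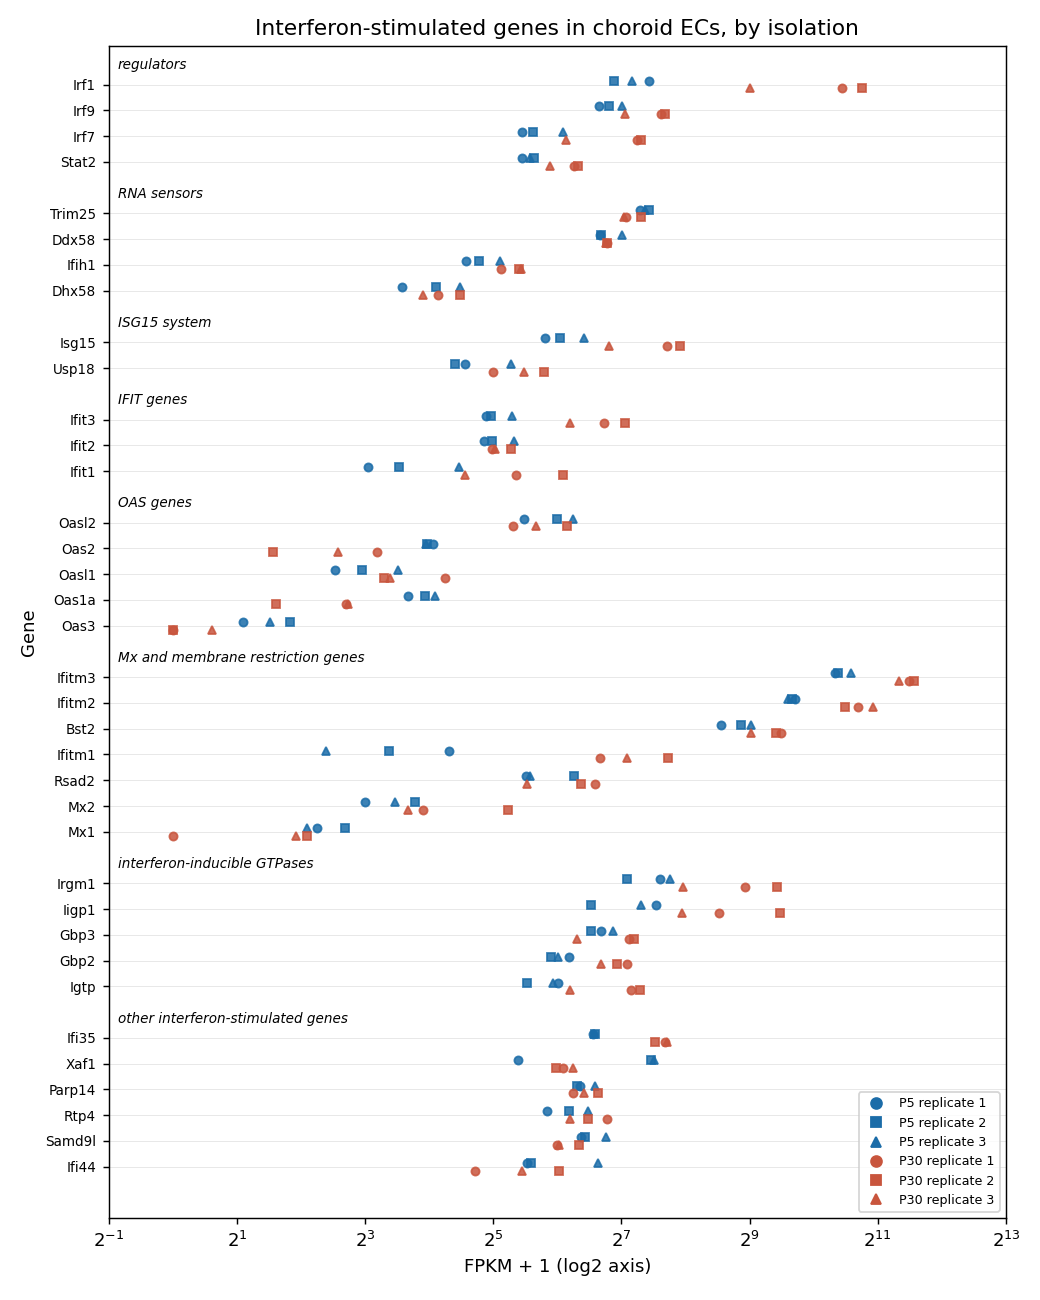
FPKM + 1 of the 36 interferon-stimulated genes on a log2 axis, with 1 symbol per isolation, P5 in blue and P30 in red, grouped by role. Ifitm3 and Ifitm2 stand highest at both ages, and Irf1 and Ifitm1 show the widest gap between ages.

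Promoter sequences are shown for 5 of the 6 genes that rose and for Isg15, to show which of them hold the elements through which interferon signals reach DNA. Each window of 300 bases, from 250 before the transcription start to 50 after it, is from RefSeq (GRCm38.p6). Each was found by exact match at a single place in mm9, whose coordinates are given. Only the chromosomes that carry a window of the group were searched. Capitals mark ISRE-like matches (GAAA, any 2 bases, then GAAA, or on the other strand TTTC, any 2 bases, then TTTC) and GAS-like matches (TTCNNNGAA, which reads the same on both strands). The Irf1 window is at chr11:53583266-53583565 on the plus strand and the Ifit3 window at chr19:34657769-34658068 on the plus strand. The Ifitm2 window is at chr7:148141811-148142110 and the Ifitm3 window at chr7:148196594-148196893, both on the minus strand. The Ifi35 window is at chr11:101309476-101309775 on the plus strand and the Isg15 window at chr4:155574878-155575177 on the minus strand.
Irf1: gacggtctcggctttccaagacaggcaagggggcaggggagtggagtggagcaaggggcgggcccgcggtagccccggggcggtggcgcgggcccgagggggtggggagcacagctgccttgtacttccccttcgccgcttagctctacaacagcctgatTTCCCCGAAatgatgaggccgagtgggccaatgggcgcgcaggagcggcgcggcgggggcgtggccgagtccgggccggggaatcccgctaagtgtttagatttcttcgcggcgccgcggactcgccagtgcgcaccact
Ifit3: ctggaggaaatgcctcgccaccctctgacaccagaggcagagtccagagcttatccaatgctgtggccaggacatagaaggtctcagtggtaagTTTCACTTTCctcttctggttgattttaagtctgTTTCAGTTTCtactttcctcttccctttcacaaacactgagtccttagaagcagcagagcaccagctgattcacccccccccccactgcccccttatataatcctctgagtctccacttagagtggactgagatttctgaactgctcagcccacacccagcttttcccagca
Ifitm2: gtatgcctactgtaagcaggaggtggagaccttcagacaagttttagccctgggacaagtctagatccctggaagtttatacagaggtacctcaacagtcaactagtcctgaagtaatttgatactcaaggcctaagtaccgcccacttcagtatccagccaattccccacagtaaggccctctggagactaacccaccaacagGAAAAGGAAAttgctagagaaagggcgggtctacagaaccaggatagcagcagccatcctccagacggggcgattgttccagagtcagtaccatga
Ifitm3: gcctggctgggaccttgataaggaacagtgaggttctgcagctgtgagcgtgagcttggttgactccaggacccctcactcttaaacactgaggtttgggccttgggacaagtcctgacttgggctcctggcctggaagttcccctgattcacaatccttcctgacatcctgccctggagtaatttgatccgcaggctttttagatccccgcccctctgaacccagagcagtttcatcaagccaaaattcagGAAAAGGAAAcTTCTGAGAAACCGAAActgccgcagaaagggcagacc
Ifi35: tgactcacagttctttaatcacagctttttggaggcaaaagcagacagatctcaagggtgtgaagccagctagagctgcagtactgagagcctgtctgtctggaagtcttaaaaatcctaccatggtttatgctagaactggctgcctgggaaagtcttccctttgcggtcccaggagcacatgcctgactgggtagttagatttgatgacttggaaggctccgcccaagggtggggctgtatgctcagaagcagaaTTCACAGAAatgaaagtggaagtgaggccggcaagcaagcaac
Isg15: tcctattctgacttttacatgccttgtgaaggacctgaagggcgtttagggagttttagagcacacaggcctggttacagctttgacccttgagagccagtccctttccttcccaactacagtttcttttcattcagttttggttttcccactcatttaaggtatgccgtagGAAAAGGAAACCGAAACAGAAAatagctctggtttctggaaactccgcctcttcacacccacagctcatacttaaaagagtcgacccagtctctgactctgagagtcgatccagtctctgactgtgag

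The windows fell into different kinds. Irf1 held 1 GAS-like match, TTCCCCGAA, beginning 90 bases before the start, and no ISRE-like match. Ifit3 held 2 ISRE-like matches, beginning 156 and 122 bases before the start, and Ifitm2 held 1, beginning 46 bases before it. Ifitm3 held 2 ISRE-like matches just after the start, with a GAS-like match that overlaps the second of them. Ifi35 held 1 GAS-like match and no ISRE-like match. The window of Isg15 held 3 ISRE-like matches that overlap each other, and that of Ifitm1 held neither motif. The start in that RefSeq window of Ifitm1 lies inside the gene, downstream of the start of the mm9 annotation given for it here, so sequence before the annotated start was not searched. Over the 28 genes of the group with a RefSeq window, 16 of 32 windows (50%) held an ISRE-like match, beside 3.44% of all 32851 windows of the same length, and 7 (21.9%) held a GAS-like match, beside 8.30%. Among the genes that rose, 3 of 7 windows held an ISRE-like match, and among the genes tested that did not pass the limits 12 of 24 did. A GAS-like match stood in 3 of 7 and in 4 of 24 windows. The windows describe sequence only, and no binding was measured.

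Among the regulators, Irf1 showed the largest rise. Irf1 (chromosome 11, 53583516 to 53591876 of mm9) encodes a transcription factor that is itself induced by interferon. In P5 replicates 1 to 3 it stood at 172, 117 and 142 FPKM, and in P30 replicates 1 to 3 at 1395, 1731 and 512 FPKM. Values of other genes are given in the same order. All P30 isolations were high, but P30 replicate 3 had less than the other P30 isolations by a wide margin. The mean rose 8.44-fold, from 144 ± 27.8 to 1213 ± 630.0 FPKM (SD, n = 3 per age), with a log2 difference of 2.91 (SE 0.42, limma adjusted p = 0.00220). Without P5 replicate 2 or P5 replicate 3 the adjusted p from limma was 0.0129 or 0.0147, above the limit of 0.01.

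The other regulators were higher at P30 in every isolation but did not pass the limits. Irf7 (chromosome 7, 148448605 to 148452380), which amplifies type I interferon production, had 42.6, 48.5 and 66.8 at P5 and 151, 158 and 69.1 at P30. P30 replicate 3 lay just above the highest P5 isolation (log2 difference 1.18 with SE 0.33, limma adjusted p = 0.0270). Irf9 (chromosome 14, 56222408 to 56228867), the DNA-binding partner of STAT2, had 99.0, 111 and 128 at P5 and 196, 205 and 132 at P30 (log2 difference 0.63 with SE 0.19, limma adjusted p = 0.0331). Stat2 (chromosome 10, 127707629 to 127729905) had 42.8, 48.8 and 46.8 at P5 and 75.5, 79.0 and 57.9 at P30 (log2 difference 0.60 with SE 0.15, limma adjusted p = 0.0193). In all 4 regulators P30 replicate 3 was the lowest P30 isolation and P30 replicate 2 the highest.

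The sensors of viral RNA did not pass the limits in either direction. Ddx58, which encodes RIG-I, had 110 ± 15.8 at P5 and 108 ± 1.04 at P30, and Trim25, the ubiquitin ligase that activates RIG-I, had 156, 172 and 164 at P5 and 133, 157 and 131 at P30 (log2 difference -0.22 with SE 0.11, limma adjusted p = 0.140). The ages overlapped in both. Dhx58, which encodes LGP2, a regulator of the other sensors, had 16.1 ± 5.14 and 17.4 ± 3.74. Ifih1, which encodes MDA5, a sensor of long double-stranded RNA, was the sensor with the highest log2 fold change, 0.50 (SE 0.19, limma adjusted p = 0.0663). Its FPKM ran from 22.9 to 33.3 at P5 and from 33.8 to 42.4 at P30, without overlap.

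**Figure D2:**
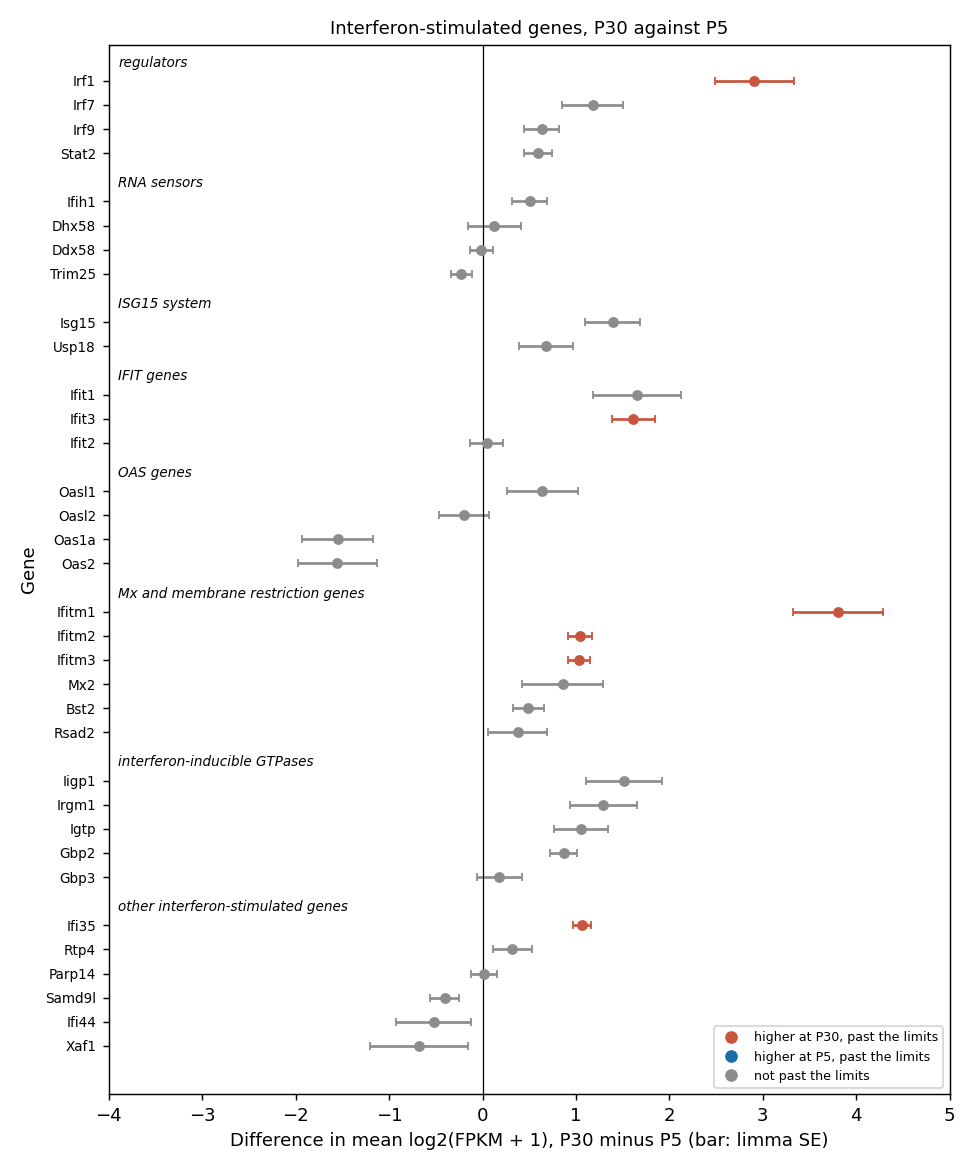
Difference in mean log2(FPKM + 1), P30 minus P5, for the 34 interferon-stimulated genes tested, with bars for the limma standard error (3 isolations per age). The 6 red points are the genes that rose, and Oas1a and Oas2 stand farthest to the left at -1.55 each without passing the limits.

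ISG15 is a ubiquitin-like protein that is attached to other proteins during the interferon response, and USP18 removes it and also blocks the type I receptor. Isg15 (chromosome 4, 155573533 to 155574927) had 54.8, 65.0 and 84.2 at P5 and 209.7, 241 and 110.4 at P30. The ages did not overlap, and P30 replicate 3 was nearest to P5. With a log2 difference of 1.39 (SE 0.30, limma adjusted p = 0.0102) it lay just outside the limits, and without P30 replicate 3 it passed them at 1.73 (adjusted p = 0.00146 from limma). Usp18 had 26.9 ± 9.67 at P5 and 43.1 ± 11.9 at P30, and the ages overlapped.

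The IFIT genes encode proteins that bind foreign RNA and block its translation, and they lie side by side on chromosome 19. Ifit3 (34658021 to 34663221) had 28.5, 30.1 and 38.2 at P5 and 105, 132 and 72.5 at P30. No P30 isolation reached down to the P5 values, and the mean rose 3.19-fold, with a log2 difference of 1.61 (SE 0.23, limma adjusted p = 0.00209). Of the distinct 50-base stretches in its annotated transcripts, 51.5% also occur in another gene, most in the neighbouring copy I830012O16Rik (34682421 to 34687891), so reads of these genes cannot always be told apart. I830012O16Rik rose as well, from 13.7, 16.4 and 17.8 at P5 to 70.5, 78.0 and 34.3 at P30 (log2 difference 1.79 with SE 0.31, limma adjusted p = 0.00445). Without P5 replicate 1 or P5 replicate 2 the adjusted p of Ifit3 was 0.0111 or 0.0131 from limma. With any 1 of the P5 isolations left out, I830012O16Rik did not pass either, at a limma adjusted p between 0.0199 and 0.0205.

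The remaining IFIT genes did not pass the limits. Ifit1 (34715361 to 34724499) had 7.28, 10.6 and 21.1 at P5 and 39.8, 66.8 and 22.6 at P30. The log2 fold change was 1.65 (SE 0.47, limma adjusted p = 0.0290), close to that of Ifit3, but P5 replicate 3 and P30 replicate 3 were close together. Ifit2 (34625184 to 34650909) had 32.5 ± 5.96 at P5 and 33.3 ± 3.74 at P30, with overlapping isolations. In Ifit1 and Ifit3, P5 replicate 3 was the highest of its age and P30 replicate 3 the lowest of its age.

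The OAS genes encode enzymes that sense double-stranded RNA and trigger degradation of RNA, and catalytically inactive relatives. None of the 4 tested passed the limits in limma. At an unadjusted limma p under 0.05, 0 of the 4 had more at P30, beside 20.7% of all genes tested. Less at P30 was found in 2 of the 4, beside 28.8% of all genes tested. Oas1a (chromosome 5, 121346265 to 121357536) had 11.7, 14.4 and 16.1 at P5 and 5.53, 2.05 and 5.64 at P30 (log2 difference -1.55 with SE 0.38, limma adjusted p = 0.0166). Oas2 (chromosome 5, 121180342 to 121199862) had 15.8, 14.6 and 14.5 at P5 and 8.08, 1.96 and 4.96 at P30 (log2 difference -1.55 with SE 0.42, limma adjusted p = 0.0246). In both genes every P30 isolation was below every P5 isolation, P30 replicate 2 was the lowest, and without P30 replicate 1 Oas2 passed the limits at -1.92 (adjusted p = 0.00829 from limma). Oas3 was under the minimum for the test, at 1.14, 2.55 and 1.87 at P5 and at 0, 0 and 0.530 at P30 (p = 0.1 by an exact permutation over isolations, two-sided, which is as low as 3 against 3 can go). A value of 0 in these files may be a failed estimate. Oasl1 had 7.32 ± 2.89 and 12.1 ± 5.09 and Oasl2 had 60.5 ± 15.6 and 52.9 ± 15.8 at P5 and P30, both with overlap. For Oas1a, 53.0% of the 50-base stretches of its transcripts also occur in another gene, most in its copy Oas1g.

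The macrophage and leukocyte markers moved in the same direction as Oas1a and Oas2. Their summed FPKM was 1284, 420.3 and 835 in P30 replicates 1 to 3, and P30 replicate 2, lowest in that sum, was also lowest for both genes. The endothelial sum had that order at P30 as well. At P5 the macrophage and leukocyte sum was 1864, 1864.5 and 1484 in replicates 1 to 3, so its order rests on a near tie of replicates 1 and 2. None of the 34 genes had that order, beside 19.3% of all genes. In P5 replicate 3, where the sum was lowest, Oas1a was highest. Oas2 was lowest there, at 14.5 beside 15.8 and 14.6 in P5 replicates 1 and 2. Ptprc, which encodes the leukocyte protein CD45, fell from between 25.4 and 28.3 FPKM to between 7.61 and 7.97, and Csf1r, the receptor of macrophage growth factors, had 169 to 262 at P5 and 36.6 to 169 at P30 (limma adjusted p = 0.0408). Of the most abundant genes of the list, the complement gene C1qb had 250 to 329 and 32.2 to 169, and the lysozyme gene Lyz2 overlapped between the ages at 134 to 263 and 124 to 380.4. The part of these markers in the values of Oas1a and Oas2 was not tested. In pooled RNA, fewer cells of a type and less RNA per cell cannot be told apart.

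**Figure D3:**
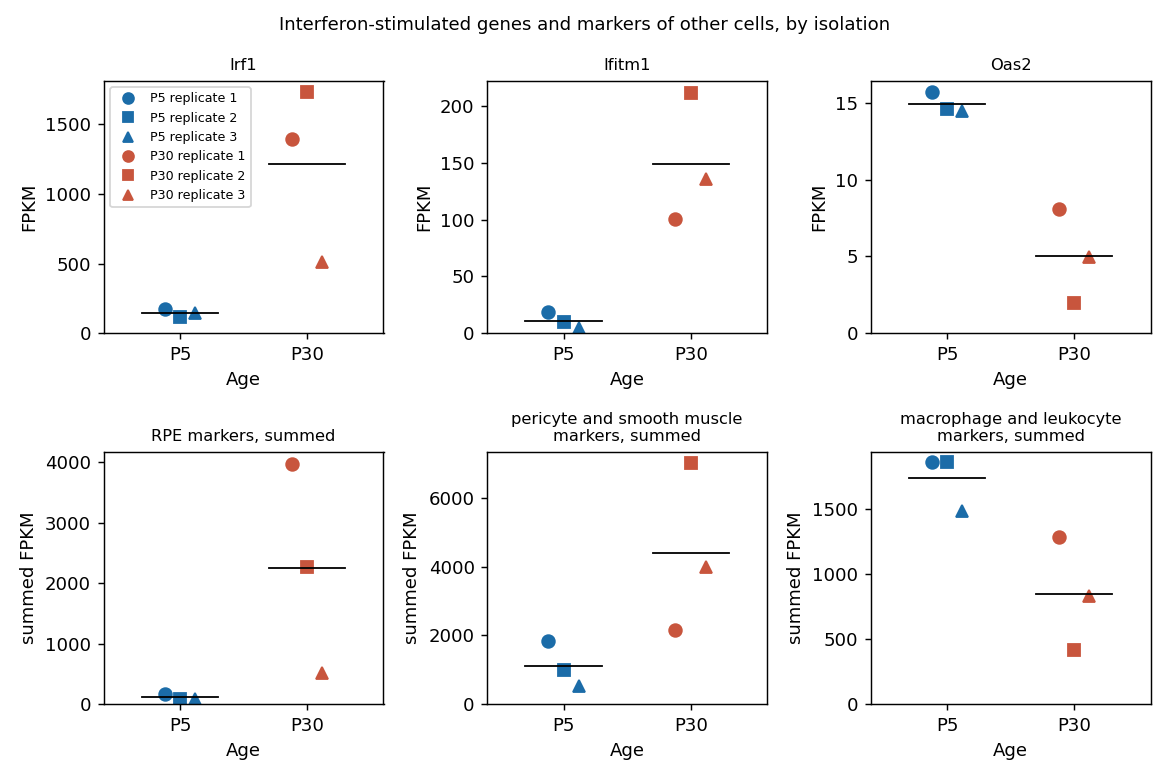
FPKM of Irf1, Ifitm1 and Oas2 (top row) and summed FPKM of the RPE, pericyte and smooth muscle, and macrophage and leukocyte markers (bottom row) in each isolation, with a line at the mean of each age. Ifitm1 has the same order of isolations within each age as the pericyte and smooth muscle sum. At P30 this is also the order of the fibroblast sum. Oas2 has the same order at P30 as the macrophage and leukocyte sum, which is also that of the endothelial sum.

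The membrane proteins that restrict viruses held the most abundant genes of the group. IFITM proteins sit in plasma and endosomal membranes and hinder fusion of enveloped viruses. Ifitm3 (chromosome 7, 148195485 to 148196669) had 1289, 1329 and 1539 at P5 and 2872, 3027 and 2588 at P30. Ifitm2 (148140736 to 148141882 on the same chromosome) had 833, 812 and 778 at P5 and 1657, 1432 and 1935 at P30. The ages stood well apart in both genes, and the isolations of an age were close to each other. The mean rose 2.04-fold for Ifitm3 (log2 difference 1.03 with SE 0.12, limma adjusted p = 0.000789) and 2.07-fold for Ifitm2 (log2 difference 1.04 with SE 0.13, limma adjusted p = 0.00106). Both sat near the 2-fold limit, and with quantile normalization neither passed it, at log2 fold changes of 0.63 for Ifitm3 (adjusted p = 0.00673 from limma) and 0.70 for Ifitm2 (adjusted p = 0.00634 from limma). Ifitm3 also missed the fold limit without P5 replicate 1 or P30 replicate 2 (log2 difference 0.98 in each case) and without P5 replicate 2, and Ifitm2 missed it without P30 replicate 3, at 0.93. Of the 50-base stretches of the Ifitm1, Ifitm2 and Ifitm3 transcripts, between 5.02% and 11.1% also occur in another gene, so part of their reads is of uncertain origin.

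Ifitm1 (148153120 to 148155724 on chromosome 7) lies between them but had a different range. It had 18.9, 9.41 and 4.23 at P5 and 101, 212 and 135 at P30, a 13.8-fold rise in the mean, from 10.9 ± 7.45 to 149 ± 56.7 (log2 difference 3.81 with SE 0.48, limma adjusted p = 0.00131). This was the largest change among the 34 genes tested. Within each age its isolations had the order of the summed pericyte and smooth muscle markers, which were 1842, 990.4 and 544 at P5 and 2172, 7008 and 3991 at P30. No other of the 34 genes had that order at both ages. This share, 2.94%, was smaller than the 6.63% of all genes tested. The fibroblast sum had the same order at P30 but not at P5. The part of these markers in the rise of Ifitm1 was not tested.

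Bst2 (chromosome 8, 74058163 to 74061336), which encodes tetherin and holds budding virus at the cell surface, was the fourth most abundant gene of the group. It had 376, 465 and 522 at P5 and 722, 679 and 517 at P30 (log2 difference 0.49 with SE 0.17, limma adjusted p = 0.0533), and P30 replicate 3 fell within the P5 range. Rsad2, which encodes viperin, had 55.7 ± 17.4 and 73.9 ± 26.1 at P5 and P30, with overlap. Mx2, of the dynamin-like Mx GTPases, had 9.89 ± 2.83 at P5 and 14.0, 36.5 and 11.7 at P30. Mx1 was under the minimum for the test at 4.15 ± 1.13 and 2.02 ± 1.77, and was listed at 0 in P30 replicate 1 (exact permutation p = 0.2). Many laboratory mouse strains carry a defective Mx1 gene.

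The interferon-inducible GTPases are strongly driven by type II interferon and act on vacuoles that hold microbes. Their means were higher at P30 in all 5 genes, and none of the 5 passed the limits in limma. Over all 12481 genes tested, 5437 had a log2 fold change above 0. An unadjusted limma p under 0.05 toward P30 was reached by 4 of the 5, beside 20.7% of all genes. Every P30 isolation lay above every P5 isolation in 4 of the 5 (80.0%), beside 22.0%. Irgm1 (chromosome 11, 48675470 to 48685185) had 192, 136 and 216 at P5 and 488, 690.0 and 248 at P30 (log2 difference 1.29 with SE 0.36, limma adjusted p = 0.0268). Iigp1 had 185, 91.2 and 158 at P5 and 365, 708 and 245 at P30 (log2 difference 1.52 with SE 0.41, limma adjusted p = 0.0230). Igtp (chromosome 11, 58013058 to 58021093) had 63.8, 45.4 and 60.0 at P5 and 141, 156 and 72.4 at P30 (log2 difference 1.05 with SE 0.29, limma adjusted p = 0.0263). In these 3 genes the ages did not overlap, P30 replicate 2 was highest, and P30 replicate 3 lay near the P5 isolations. Without P30 replicate 3, Irgm1 and Igtp passed the limits, at log2 fold changes of 1.70 (adjusted p = 0.00314 from limma) and 1.39 (adjusted p = 0.00209 from limma).

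Of the guanylate-binding proteins, Gbp2 (chromosome 3, 142283566 to 142300972) had 71.4, 58.9 and 63.8 at P5 and 135, 121 and 102 at P30. The ages were apart, and the adjusted p of 0.00354 from limma passed 0.01, but the difference was under 2-fold (log2 fold change 0.87, SE 0.14). Gbp3 (chromosome 3, 142223016 to 142236173) had 103 ± 12.4 and 121 ± 36.9, and P30 replicate 3, at 78.3, was the lowest of all 6 isolations.

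Ifi35 (chromosome 11, 101309721 to 101320012), which encodes a leucine-zipper protein that binds NMI, was the steadiest of the genes that rose. It had 92.7, 95.6 and 93.8 at P5 and 204, 182 and 209 at P30, a 2.11-fold rise in the mean (log2 difference 1.07 with SE 0.10, limma adjusted p = 0.000379). Ifi35 and Ifitm1 were the only genes of the group that passed the limits in the main setting and in all 18 alternatives run. The others of this mixed group did not pass. Parp14, an ADP-ribosyltransferase, had 84.7 ± 8.96 and 86.1 ± 11.9, and Rtp4 had 71.9 ± 15.9 and 89.7 ± 18.0. Samd9l, a restriction factor of poxviruses, ran from 81.6 to 108 at P5 and from 63.0 to 79.6 at P30, with no overlap (log2 difference -0.40 with SE 0.15, limma adjusted p = 0.0729). Ifi44 had 63.5 ± 30.5 and 44.0 ± 19.4. Xaf1, an inhibitor of the apoptosis inhibitor XIAP, had 41.1, 175 and 182 at P5 and 67.1, 62.4 and 74.8 at P30, so that P5 replicate 1 was the lowest of all isolations. Without that isolation Xaf1 passed the limits as higher at P5 (log2 fold change -1.38, adjusted p = 0.00204 from limma).

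Isolations of 1 age differed from each other in these genes more than in most. The median SD of log2(FPKM + 1) over the 34 genes was 0.26 at P5 and 0.41 at P30, beside 0.13 and 0.26 over all genes tested. P5 replicate 3 was the highest P5 isolation in 22 of the 34 genes (64.7%), beside 32.9% of all genes, and P5 replicate 1 the lowest in 23 (67.6%), beside 30.8%. At P30, replicate 2 was the highest in 23 genes (67.6%), beside 46.1%, and replicate 3 the lowest in 20 (58.8%), beside 38.4%. The median of log2(FPKM + 1) over the 34 genes was 5.66, 6.02 and 6.33 at P5 and 6.70, 6.71 and 6.20 at P30. By this median P30 replicate 3 lay within the P5 range. Over all genes tested, the same median lay between 5.76 and 5.78 at P5 and between 5.62 and 5.81 at P30. Marker sums also differed between the P30 isolations. The RPE sum was lowest in P30 replicate 3, at 509.6, beside 3968 in replicate 1 and 2263 in replicate 2, and the pericyte and smooth muscle sum (7008) and the fibroblast sum (4488) were highest in P30 replicate 2. Gbp2 had the order of the RPE sum at both ages, as 1.78% of all genes did. The part of these markers in the order of the isolations was not tested.

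The genes upstream were then examined. Of 21 interferon genes listed, 19 have a row, and 18 of these were listed at 0 in all 6 isolations, Ifnb1 and Ifng among them. The exception was Ifnz, at 0.680 in P30 replicate 2. Of 9 genes for interferon receptors and their kinases, 8 were tested. None passed the limits in limma, beside 5.89% of all genes that rose and 5.82% that fell. At an unadjusted p under 0.05 from limma, 2 of the 8 had more at P30 and 3 of the 8 had less. Over all 12481 genes tested these were 2584 (20.7%) and 3592 (28.8%). Ifnar1 had 127 ± 10.1 at P5 and 80.0 ± 4.83 at P30 (log2 difference -0.66 with SE 0.11, limma adjusted p = 0.00402), under the fold limit, and its partner Ifnar2 had 165 ± 4.90 and 221 ± 34.4 (adjusted p = 0.0395 from limma). Ifngr1 had 226 ± 5.19 and 325 ± 47.6 (log2 difference 0.51 with SE 0.12, limma adjusted p = 0.0148) and Ifngr2 had 169.5 ± 12.9 and 131 ± 26.2 (adjusted p = 0.0951 from limma). The kinase Jak1 had 353 ± 6.16 and 272 ± 29.6 (adjusted p = 0.0250 from limma), and Tyk2 had 56.0 ± 4.81 and 62.0 ± 7.99.

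In the pathway that senses nucleic acid and switches on interferon genes, 1 of 13 genes tested rose (7.69%) and 1 fell (7.69%). By these limits the shares are close to the 5.89% and 5.82% of all genes tested. At a limma adjusted p under 0.05 with the same fold limit, 1 of the 13 passed toward P30 and 4 toward P5. Over all genes tested, 9.05% and 7.69% did. Irf8, a transcription factor of the IRF family, rose from 44.7 ± 3.90 to 141 ± 5.48 (log2 difference 1.64 with SE 0.11, limma adjusted p = 0.000168). The gene for cGAS, the sensor of cytosolic DNA, is listed as E330016A19Rik and fell from 13.4 ± 1.78 to 3.63 ± 0.771 FPKM (log2 difference -1.64 with SE 0.29, limma adjusted p = 0.00497). Without any 1 of the P5 isolations the log2 difference stayed between -1.70 and -1.54, but the limma adjusted p ran from 0.0239 to 0.0334 and 0 genes of the list passed as higher at P5. Without P30 replicate 1, 3 did. The macrophage and leukocyte sum, given above, fell in the same direction, and its part in the fall of this gene was not tested.

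**Figure D4:**
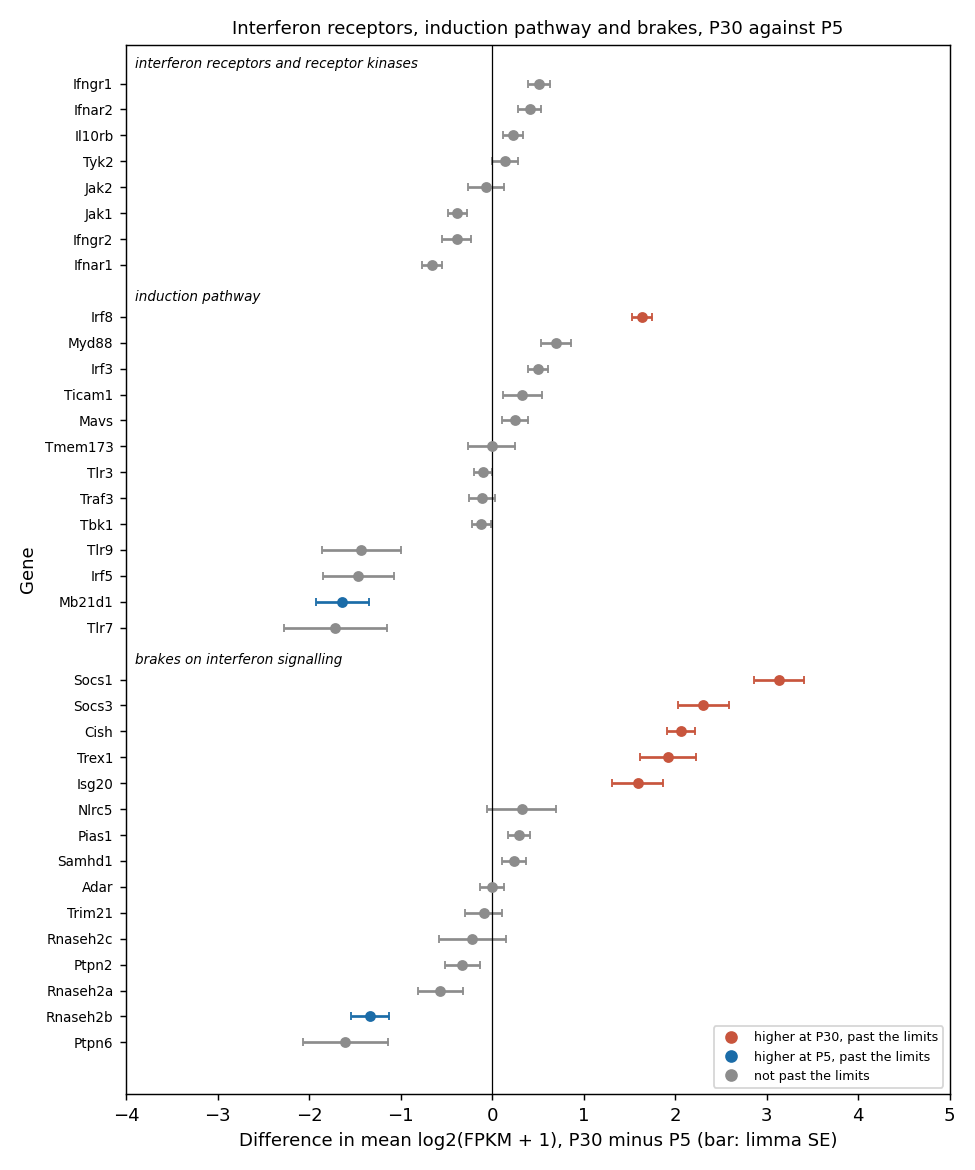
Difference in mean log2(FPKM + 1), P30 minus P5, for genes of the interferon receptors, the induction pathway and the brakes on interferon signalling, with bars for the limma standard error (3 isolations per age). Red points passed the limits as higher at P30 and blue points as higher at P5. Of the red points, 5 are from the list called brakes, which also holds genes with other main roles, with Socs1 at 3.13.

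A further list, called brakes here, was mixed. It held genes that restrain interferon signalling or remove nucleic acid that would trigger it. It also held genes with other main roles, and some that are interferon-stimulated themselves, such as the nuclease gene Isg20. Of 15 tested, 5 rose (33.3%) and 1 fell (6.67%), beside 5.89% and 5.82% of all genes, and the difference in share was not tested. Leaving out any 1 of the P5 isolations left 3 that rose (Socs1, Socs3 and Cish) and 0 that fell, while Trex1, Isg20 and Rnaseh2b kept log2 differences of at least 1.73, at least 1.43 and at most -1.28. Socs1, which blocks the Janus kinases and is induced by the signal it stops, ran from 18.7 to 33.8 at P5 and had 211, 334 and 187 at P30, all well above P5 (log2 difference 3.13 with SE 0.28, limma adjusted p = 0.000331). Socs3, which acts mainly on receptors of the IL-6 family, rose from 399 ± 125 to 1985 ± 598 (log2 difference 2.31 with SE 0.28, limma adjusted p = 0.00110). Cish, a further SOCS gene induced by STAT5, rose from 57.9 ± 9.72 to 244 ± 30.7, with a limma adjusted p of 0.000213. Of the nuclease genes, Trex1 rose from 49.5 ± 11.2 to 198 ± 84.7 (limma adjusted p = 0.00311), and Isg20 from between 3.27 and 5.69 to between 14.3 and 16.3 (limma adjusted p = 0.00471). Rnaseh2b, a subunit of the enzyme that removes ribonucleotides from DNA, fell from 59.0 ± 5.42 to 23.2 ± 6.23 FPKM (log2 difference -1.34 with SE 0.21, limma adjusted p = 0.00278).

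A second list held 51 interferon-stimulated genes outside the 37. Of the 47 tested, 4 rose (8.51%) beside 5.89% of all genes, and none fell in limma beside 5.82%. The median log2 fold change was 0.35. An unadjusted limma p under 0.05 with more at P30 was reached by 19 of the 47, beside 2584 of all 12481 genes tested (20.7%). With less at P30 it was reached by 2 of the 47, beside 3592 of the 12481 (28.8%). All P30 isolations exceeded all P5 isolations in 18 of the 47 (38.3%), beside 22.0% of all genes. The reverse held in 3 (6.38%), beside 33.0%. The number that rose was 8 without P30 replicate 3. Leaving out 1 isolation also moved the count over all genes, to between 396 and 849. Of the 4, I830012O16Rik did not pass with any 1 of the P5 isolations left out. It passed in 1 of the 3 fits that left out a P30 isolation. The other genes that rose passed in each of these fits. The 4 were I830012O16Rik, given above, Lgals3bp, which encodes a secreted glycoprotein (79.0 ± 12.4 to 219.7 ± 28.6, adjusted p = 0.000568 from limma), Slfn5 (332 ± 44.9 to 727 ± 109, adjusted p = 0.00157 from limma) and Tap2, a subunit of the peptide transporter for antigen presentation (121 ± 9.86 to 266 ± 24.6, adjusted p = 0.000506 from limma). The chemokine gene Cxcl10, chosen here after its values were seen, had 81.1, 61.3 and 73.5 at P5 and 229, 614 and 128 at P30, the same order at P30 as Irf1, and did not pass the limits (log2 difference 1.86 with SE 0.50, limma adjusted p = 0.0231).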

How the data were processed

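RNAseq of sorted choroid ECs was analysed, with 3 isolations per age mapped to P5 and P30 from the sample titles. Per the labels and the study's methods, reads were aligned by the authors with TopHat (mm9), and CuffLinks gave the FPKM, corrected for GC content and scaled by the upper quartile. The deposited files hold 1 FPKM value per gene symbol. CASAVA 1.8.2 is named in the submitters' processing notes. The versions of TopHat and CuffLinks and the gene annotation are not given in the sources used here. Read counts were not used here, so depth is unknown and no counting error is given: ratios of values under FPKM 3 did not pile up at single steps (at most 3.81% of genes in a bin of 0.05 in log2 ratio), and no isolations held identical values.

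R 4.3.3 with limma 3.58.1 was used for the test of log2(FPKM + 1), with an eBayes trend and no block. A fold change on this scale is understated for genes of low FPKM. All p-values measure the spread between pooled isolations. Genes under the minimum got an exact permutation test. The fit was tested on simulated data. These data had a single spread for all genes and both ages, set from the median over genes at P5. They do not show how the fit performs at the wider spread of the interferon-stimulated genes. Other steps ran in Python 3.11.15 (scipy 1.17.1). Gene positions are those of GENCODE vM1 on mm9, matched by symbol.

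The genes, lists and limits were chosen with earlier results of these data known. Every gene of the group was named, with values in every isolation for those past the limits and for the 10 of highest mean FPKM. From the pathway lists, genes past the limits (up to 5 in each direction) and 6 receptor and kinase genes were named. From each marker list, the 2 genes of highest mean FPKM were named, with Ptprc, Csf1r, Pecam1 and Cdh5. Some listed genes are not reported here. Alternatives were other pseudocounts, minimum FPKM values, thresholds and scalings, no trend, a replicate block, and each isolation left out in turn.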

Additional observations from a re-analysis of the deposited data

How the results depend on the processing

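The count of interferon-stimulated genes higher at P30 was 6 and stayed between 5 and 7 under every alternative that kept all isolations and the adjusted p limit of 0.01. With an adjusted p under 0.05 it was 12, with 2 higher at P5, and 1130 of all genes were then higher at P30. With no fold limit 1338 of all genes were higher at P5. Leaving out 1 isolation gave between 3 and 9 of these genes higher at P30 and between 0 and 1 higher at P5, and between 396 and 849 and between 291 and 754 of all genes. Of 612 repeats of single genes, 574 kept direction and side of the limits, 18 came to pass them, 10 no longer passed, and 10 changed sign, all in genes near 0. Ddx58 was 0.073 with median-of-ratios scaling. With 1 isolation left out, the log2 difference ran from -0.073 to 0.10 for Ddx58, from -0.058 to 0.18 for Ifit2, from -0.11 to 0.34 for Dhx58, from -0.083 to 0.11 for Parp14 and from -0.42 to 0.0029 for Oasl2. The cause of these changes was not tested.

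Isolations of the same number share only that number: their deviations from the age means correlated at -0.062, -0.091 and -0.031 for replicates 1, 2 and 3. With the replicate block, the counts toward P30 and P5 were 6 and 0 among the interferon-stimulated genes and 585 and 524 among all genes. The block changed no call among the 34 genes. In the induction pathway list, 0 genes were higher at P5 with the block, in place of 1. Depth limits the low genes, such as Oas3 and Mx1, in a way that cannot be measured from FPKM.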
